A study of Mus musculus with 491 samples.

Results

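Otic epithelial cells with high Tbx1 were compared with otic epithelial cells in which Tbx1 was not found. The cells came from the otic vesicle and the tissue around it of Pax2-Cre/+;Ai14-tdTomato/+ mouse embryos at E10.5, in which Cre made from the Pax2-Cre transgene switches on the red reporter tdTomato. Every cell of both groups therefore carried the same alleles and had been sorted as a single tdTomato+ cell, with no mutant or treated group. The cells were chosen by their own values of 5 genes. A cell was taken as otic epithelium when log2(FPKM + 1), the deposited expression value per gene and cell, was at least 5 for Epcam, at least 1 for Sox10, below 3 for Trp63 and below 5 for Neurod1. Of 491 cells on 6 plates, 106 met these limits. Tbx1 was at least 3 in 45 of them (26 of replicate 1 and 19 of replicate 2), below 1 in 59 (31 and 28) and in between in 2, which entered neither group. Plates 1 to 3 form replicate 1 and plates 4 to 6 replicate 2. The labels do not say whether the replicates are separate litters or sorts, nor how many embryos were pooled. The p-values below therefore measure only how differences between kinds of cells vary between these 2 samples, a spread that may be technical. Its estimate also draws on cells outside the 2 groups.

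Tbx1 is a T-box transcription factor of the 22q11.2 deletion syndrome region, and its loss in mice disrupts inner ear development. In the otic vesicle, the closed epithelial sac that becomes the inner ear, Tbx1 is known from the posterolateral wall, whereas neuroblasts leave the vesicle from an anteroventral domain in which neurogenic factors such as Neurog1 and Neurod1 act. Epcam is an epithelial adhesion protein, Sox10 a transcription factor of otic epithelium and neural crest, Trp63 a transcription factor of surface ectoderm, and Otx1 a homeobox factor of the ventral and posterior vesicle.

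Both groups held otic epithelium by their markers. A median of 7 of 13 otic epithelial genes was found (FPKM of at least 1) in a Tbx1-high cell and 8 of 13 in a Tbx1-undetected cell. None of 10 macrophage genes was found in either group, at most 2 of 10 endothelial genes were found in any cell, and at most 2 of 7 pharyngeal endoderm genes were found in any cell, with Foxa2, Foxa1 and Hhex found in none. At least 3 of 15 neural tube progenitor genes were found in 13 of 45 Tbx1-high and 18 of 59 Tbx1-undetected cells, and at least 3 of 12 surface ectoderm genes in 8 and 10. For neural crest or glial precursor genes, at least 3 of 8 were found in 4 and 9 cells, and for mesenchyme at least 3 of 15 in 5 and 4. The part of such cells in the results was not tested. The median number of genes found was 4920 in Tbx1-high cells and 4811 in Tbx1-undetected cells, and 72.9% and 73.5% of values were at 0. Libraries were not independent of their neighbours. Transcripts rare in the series recurred at the same well column in 19 pairs of plate rows, and the receiving well held a median of 4.68% of the level in the source well. Of the cells compared, 33 of 45 Tbx1-high and 37 of 59 Tbx1-undetected cells lay in a receiving well whose source well held a cell of the series. Only such wells are called receiving wells below. Cells in a receiving row whose source well is absent from the series count as outside, so cells outside receiving wells are not known to be free of transfer. A correction set values that transfer could account for to 0 and applied the rule again. It kept 44 of the 45 and 58 of the 59 cells in their group and brought others in, to 48 Tbx1-high and 63 Tbx1-undetected cells. Both values and cells therefore differ in the tests and shares after correction. Corrected counts in sets of Tbx1-high cells keep the 45 cells first chosen, with the sets drawn from their corrected values.

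The groups were selected on Tbx1, so its values are a description only. Its mean log2(FPKM + 1) was 7.02 ± 1.03 (SD over 26 cells) and 6.85 ± 1.47 (19 cells) in the Tbx1-high cells of replicates 1 and 2. In the Tbx1-undetected cells the means were 0.03 and 0.01, since 57 of the 59 were listed at 0 and the other two stood at 0.27 and 0.86. Just inside the upper limit lay cells at 3.01, 3.99 and 4.65, and the cells left between the groups stood at 1.21 and 2.81. The level was close to all-or-none, with a median of 7.2 in the high cells and almost nothing between. Tbx1 read as 0 in one cell can be a failed capture, and the depth in reads is unknown because the files hold no counts. The other genes of the rule were held to the same limits in both groups. Epcam had means of 7.58 and 7.90 in the high cells and 8.0 and 7.87 in the undetected cells, and Sox10 of 3.83 and 4.37 against 3.95 and 4.51.

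**Figure D1:**
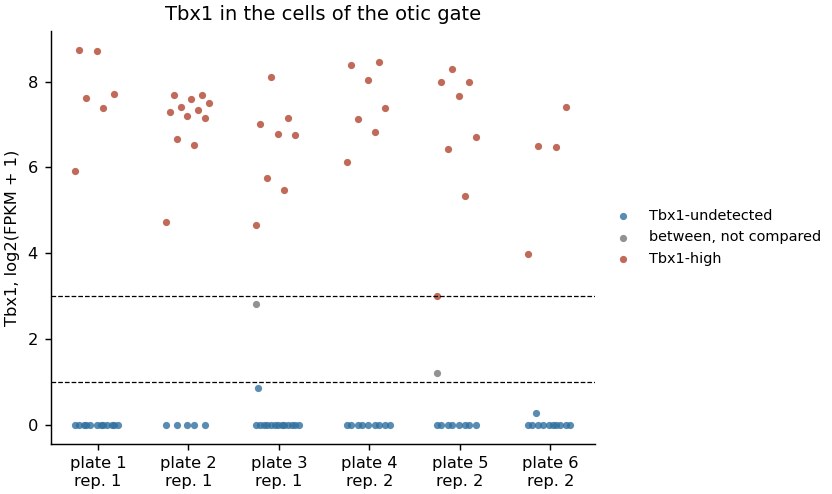
Tbx1 as log2(FPKM + 1) in each cell of the otic gate, by plate, with dashed lines at the limits of 1 and 3. Of the 106 cells, 45 lie above the upper line, 59 below the lower line and 2 between them.

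Tbx1-high cells made up 42.5% of the otic gate (exact binomial 95% interval 32.9 to 52.4%). The share was 44.8% (31.7 to 58.5%) in replicate 1 and 39.6% (25.8 to 54.7%) in replicate 2. By plate it ranged from 26.7% on plate 6 to 70.6% on plate 2, where 12 of 17 cells were high. These intervals cover counting error only.

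Few genes separated the groups. Of 10009 genes tested with limma on the mean log2(FPKM + 1) of each cell class in each replicate, 28 differed at an adjusted p below 0.05, which is 0.28% of the genes tested. Higher values in Tbx1-high cells were called for 13 genes (0.13%) and lower values for 15 (0.15%). Over all tested genes the median difference was 0.02 on the log2 scale, and 820 genes had an unadjusted p below 0.05. The sign was the same on all 6 plates for 14 of the 28, on 5 plates for 12 and on fewer for Svopl and Ppm1j. A Tbx1-high cell had a median of 7 of the 13 higher genes (range 2 to 10) and a Tbx1-undetected cell 3 (0 to 8). Of the 15 lower genes, a median of 3 (1 to 9) was found in a Tbx1-high cell and 7 (1 to 13) in a Tbx1-undetected cell, so the 2 sets overlapped cell by cell. No call held in the 34 gate cells outside receiving wells (12 high, 22 undetected), where limma called 0 genes with 903 at an unadjusted p below 0.05. None held in the cells with at least 4833 genes found or within 1 replicate alone either. All 28 differences kept their sign in these subsets. The subsets are drawn from the cells that gave the calls, and the test favours genes whose replicates agree, so the kept signs are no independent evidence. With values corrected for transfer, 18 of the 28 were still called, and with Neurod1 below 1, 14 were.

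**Figure D2:**
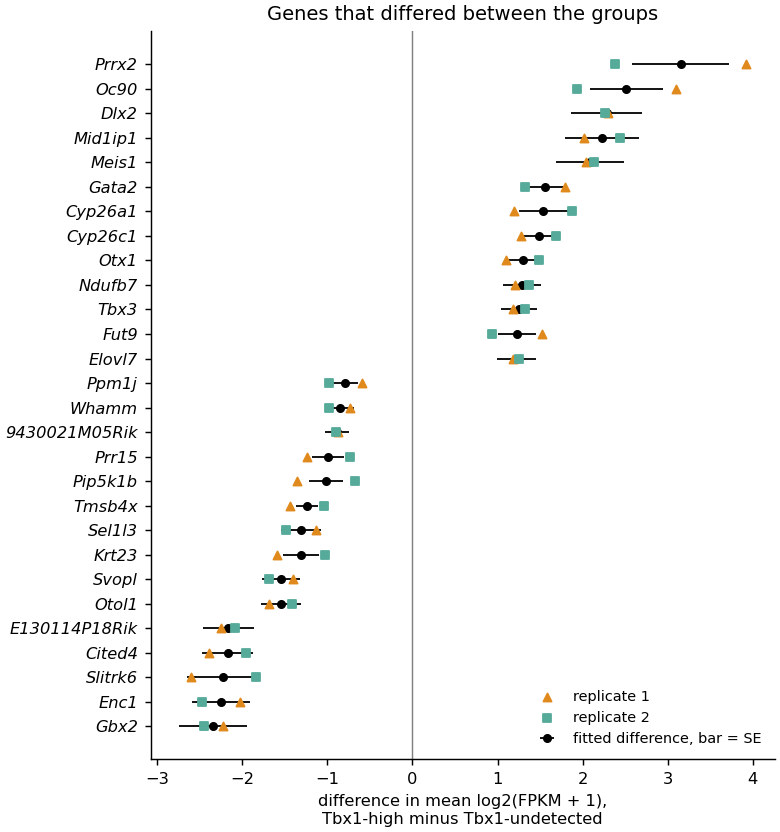
Differences in mean log2(FPKM + 1), Tbx1-high minus Tbx1-undetected, for the 28 genes that passed the test, with the fitted value and its SE (black) and each replicate (triangles and squares). Both replicates lie on the same side of 0 for every gene, which selection by the test favours. The fitted values run from Prrx2 at 3.15 to Gbx2 at -2.34.

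Prrx2, a paired-type homeobox factor best known from mesenchyme, had the largest increase in Tbx1-high cells among the called genes (mm10, chromosome 2, 30834972 to 30881251, + strand). Its means were 4.58 and 2.86 in the Tbx1-high cells of replicates 1 and 2 and 0.66 and 0.48 in the Tbx1-undetected cells. It was found in 30 of 45 and 7 of 59 cells, and the difference of 3.15 ± 0.57 (SE) on the log2 scale passed the limma test (adjusted p = 0.037). The high group lay above the undetected group on all 6 plates, but single cells overlapped, with an undetected cell as high as 8.29. Of 14 mesenchyme genes other than Prrx2, at least 1 was found in 15 of 45 Tbx1-high and 16 of 59 Tbx1-undetected cells, and Tbx18 and Foxc2 were found in none. Dlx2, a distal-less homeobox factor, was found in 28 and 13 cells, with means of 2.81 and 3.59 against 0.52 and 1.32 (difference 2.28 ± 0.42, adjusted p = 0.0389). Meis1, a TALE homeobox cofactor, had means of 3.3 and 3.18 against 1.25 and 1.05 (2.09 ± 0.40, adjusted p = 0.042).

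Gata2, a zinc finger factor of the otic vesicle, had means of 2.59 and 1.96 in Tbx1-high cells and of 0.79 and 0.64 in Tbx1-undetected cells (difference 1.56 ± 0.27, adjusted p = 0.0263). Tbx3, another T-box factor, had 1.76 and 1.84 against 0.58 and 0.52 (1.25 ± 0.21, adjusted p = 0.0263). Otx1 (chromosome 11, 21994764 to 22002897, - strand) had been named as a mark of these cells from earlier results on them, so its difference is no independent evidence. It was found in 12 of 45 Tbx1-high cells and in 1 of 59 Tbx1-undetected cells, with means of 1.1 and 1.68 against 0.00 and 0.19 (1.29 ± 0.18, adjusted p = 0.00714). It was thus also not found in most Tbx1-high cells, with single values up to 6.78 in the minority that had it. Prrx2, Dlx2 and Otx1 passed the test after correction for transfer, whereas Gata2 (1.31, adjusted p = 0.0888), Meis1 (1.44, 0.244) and Tbx3 (1.07, 0.0707) did not. Outside receiving wells the Gata2 difference was 0.89 (adjusted p = 0.536). Exons of 7 of the 28 called genes, Meis1, Tbx3, Gbx2, Mid1ip1, Prr15, Whamm and E130114P18Rik, overlap those of another annotated gene, and the sources used here do not state whether counting used strand.

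**Figure D3:**
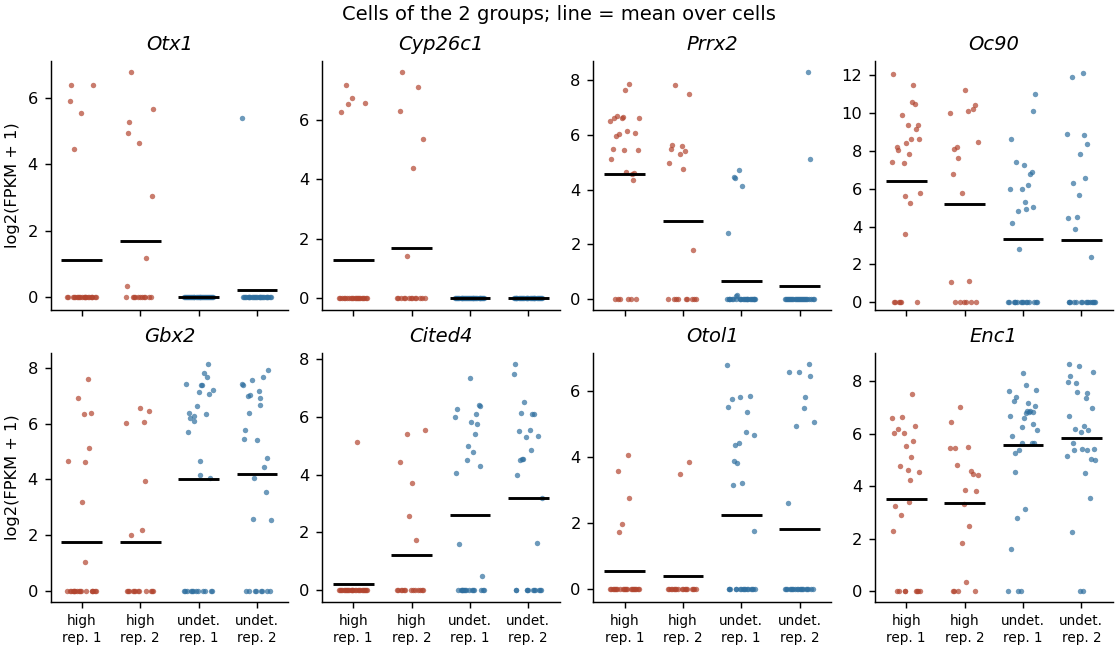
Log2(FPKM + 1) of 8 genes in every cell of the 2 groups by replicate, with the mean over cells as a line. Otx1 and Cyp26c1 are at 0 in nearly all undetected cells and high in a minority of Tbx1-high cells, whereas Oc90, Gbx2 and Enc1 are spread over both groups.

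Of 15 tested genes of retinoic acid synthesis, breakdown and reception, 2 were higher and 0 lower in Tbx1-high cells, with a list median of -0.08, beside 0.13% of all genes called higher. Both are cytochrome P450 enzymes that inactivate retinoic acid. Cyp26b1, the third such enzyme, differed by 0.15 and did not pass, and the largest difference of the list, -1.85 for the retinol dehydrogenase Rdh10, did not pass either (adjusted p = 0.393). Cyp26c1 was found in 5 cells of replicate 1 and 6 of replicate 2 among the 45 Tbx1-high cells, and was listed at 0 in every one of the 59 Tbx1-undetected cells, where a count of 0 allows the gene to be found in up to 5.08% of cells (3 of 59). This limits cells in which it was found and not cells that express it. Its means were 1.28 and 1.69 against 0.00 and 0.00, a difference of 1.49 ± 0.18 (adjusted p = 0.00395). Cyp26c1 entered the test through the Tbx1-high cells alone, so this p-value is no independent support. Cyp26a1 was found in 12 of 45 and 3 of 59 cells, with means of 1.51 and 2.11 against 0.31 and 0.22 (1.54 ± 0.29, adjusted p = 0.0409). Where they were found in Tbx1-high cells their levels were high, at a median log2(FPKM + 1) of 6.52 for Cyp26c1 and 6.67 for Cyp26a1. Both calls held after correction for transfer. With Neurod1 limited to below 1, Cyp26a1 missed the threshold at a difference of 1.52 (adjusted p = 0.0863).

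The 2 enzyme genes are direct neighbours on chromosome 19, on the + strand, with 4399 bases and 0 RefSeq genes between them, and were found together in 10 Tbx1-high cells. Their promoters are shown because both genes were higher in cells selected on a T-box factor. The 250 bases before each RefSeq start (GRCm38.p6, 5′ to 3′, + strand) are in lower case, with the T-box site AGGTGT, or its reverse complement ACACCT, in capitals.
Cyp26a1, chr19:37697558-37697807: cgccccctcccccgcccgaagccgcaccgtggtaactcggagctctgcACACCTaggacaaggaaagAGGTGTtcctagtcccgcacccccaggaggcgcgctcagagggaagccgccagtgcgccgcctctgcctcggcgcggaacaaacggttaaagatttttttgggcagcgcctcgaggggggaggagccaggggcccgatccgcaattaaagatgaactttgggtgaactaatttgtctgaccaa
Cyp26c1, chr19:37685430-37685679: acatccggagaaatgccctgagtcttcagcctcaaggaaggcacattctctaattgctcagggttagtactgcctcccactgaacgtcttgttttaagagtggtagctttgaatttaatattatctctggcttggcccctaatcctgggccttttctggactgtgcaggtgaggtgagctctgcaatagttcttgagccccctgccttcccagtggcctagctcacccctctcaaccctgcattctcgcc
The Cyp26a1 window held the site 2 times, once on each strand, and the Cyp26c1 window held none. Over all 32851 RefSeq promoters of this length, 11.8% held at least 1 match on either strand. Of the 13 higher genes, 9 matched a promoter entry, and 1 of their 10 promoters held the site. Of the 15 lower genes, 12 matched, and 0 of 12 promoters held it. These are letter matches in short windows and not measured binding.

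Secreted otic proteins moved in opposite directions. Oc90, the main otoconial protein (chromosome 15, 65876053 to 65912397, - strand), was found in 33 Tbx1-high and 29 Tbx1-undetected cells and had means of 6.42 and 5.21 against 3.33 and 3.27 (difference 2.51 ± 0.43, adjusted p = 0.0263). By plate its difference ranged from -1.43 to 6.26, and 5 of 6 plates were positive. Otol1, a collagen-like protein of otoconia and otoliths (chromosome 3, 70007613 to 70028708, + strand), was found in 7 and 24 cells, with means of 0.54 and 0.39 against 2.23 and 1.80 (-1.55 ± 0.23, adjusted p = 0.0131), and was lower on all 6 plates. The otic secreted and matrix list counted 1 higher and 1 lower of 20 tested, with a median of -0.08, beside 0.13% of all genes called higher and 0.15% lower. Both calls held after correction for transfer, where the Oc90 difference was 2.92. On the log2 of the mean FPKM the Oc90 difference was 1.16 (adjusted p = 0.803), and outside receiving wells it was 4.28 (0.0897).

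Mid1ip1, a regulator of fatty acid synthesis, had means of 3.97 and 4.3 against 1.96 and 1.86 (2.23 ± 0.43, adjusted p = 0.0477). Ndufb7, a subunit of mitochondrial complex I, had 7.39 and 7.56 against 6.19 and 6.18 (1.29 ± 0.23, adjusted p = 0.0311) and was found in all 45 and in 52 of 59 cells. Fut9, a fucosyltransferase that makes the Lewis X sugar, was found in 21 and 9 cells (1.23 ± 0.22, adjusted p = 0.037). Elovl7, a fatty acid elongase outside the rule for named genes, was found in 18 and 8 cells (1.22, adjusted p = 0.042). After correction for transfer Fut9 passed the test, and Mid1ip1 (1.59, adjusted p = 0.244), Ndufb7 (1.3, 0.059) and Elovl7 (0.93, 0.11) did not. In cells with at least 4833 genes found and in cells outside receiving wells, the difference was 0.51 and 3.0 for Ndufb7 (adjusted p = 0.71 and 0.0897) and 0.76 and 2.33 for Fut9 (0.515 and 0.327).

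Gbx2, a homeobox factor of the dorsal vesicle and the endolymphatic duct (chromosome 1, 89927956 to 89931179, - strand), was the called gene with the largest decrease in Tbx1-high cells. Its means were 1.77 and 1.75 in Tbx1-high cells against 4.0 and 4.21 in Tbx1-undetected cells, a difference of -2.34 ± 0.40 (adjusted p = 0.0263). It was found in 16 and 39 cells and was lower on 5 of 6 plates. Cited4, a transcriptional coactivator without a DNA-binding domain, was found in 7 and 32 cells, with means of 0.20 and 1.23 against 2.59 and 3.19 (-2.17 ± 0.30, adjusted p = 0.00714). Both calls held after correction for transfer.

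Tmsb4x, which encodes the actin-binding peptide thymosin beta 4, gave the lowest p-value: its means were 7.28 and 7.4 in Tbx1-high cells and 8.72 and 8.44 in Tbx1-undetected cells (-1.24 ± 0.13, adjusted p = 0.00106), and it was found in 44 of 45 and in all 59 cells. Enc1, an actin-associated Kelch protein, had 3.53 and 3.36 against 5.56 and 5.83 (-2.25 ± 0.34, adjusted p = 0.0132) and was lower on all 6 plates. Slitrk6, a transmembrane protein needed for inner ear innervation, was found in 20 and 40 cells (-2.23 ± 0.42, adjusted p = 0.042). Krt23, a type I keratin, was found in 1 and 15 cells (-1.31 ± 0.21, adjusted p = 0.0149). It was the only one of 39 tested epithelial junction and keratin genes that passed, beside 0.15% of all genes called lower. For Tmsb4x, a transcript present in nearly every library, the difference was -2.26 after correction for transfer (adjusted p = 0.0398). The correction cannot tell a cell's own low value from transfer and set some values of Tbx1-high cells to 0. In 2 sets of Tbx1-high cells described below, Tmsb4x was found in 13 of 13 and 29 of 30 cells before it and in 9 of 12 and 26 of 31 after it. The larger difference therefore cannot be read as a stronger effect. Slitrk6 missed the threshold after correction at -2.39 (adjusted p = 0.0588). In cells with at least 4833 genes found, Enc1 and Slitrk6 differed by -1.41 each (adjusted p = 0.403 and 0.529), and outside receiving wells Enc1 by -3.48 (0.155) and Tmsb4x by -1.92 (0.0897).

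E130114P18Rik, whose exons overlap Nfia on the opposite strand, was found in 8 Tbx1-high and 34 Tbx1-undetected cells (-2.17 ± 0.30, adjusted p = 0.00714). Sel1l3 was found in 5 and 25 cells (-1.31 ± 0.24, adjusted p = 0.037), Pip5k1b, a phosphatidylinositol phosphate kinase, in 3 and 15 (-1.02, adjusted p = 0.0477) and Prr15 in 3 and 17 (-0.99, adjusted p = 0.042). The noncoding 9430021M05Rik was found in 0 of 45 Tbx1-high cells, which allows it to be found in up to 6.67% (3 of 45), and in 10 of 59 Tbx1-undetected cells (-0.89 ± 0.14, adjusted p = 0.0142). It entered the test through the Tbx1-undetected cells alone, so this p-value is no independent support. Svopl, Whamm and Ppm1j, outside the rule for named genes, were also lower, by -1.55, -0.86 and -0.79. Pip5k1b (-0.99, adjusted p = 0.215), Whamm (-0.67, 0.11) and Ppm1j (-0.61, 0.0898) missed the threshold after correction for transfer. In cells with at least 4833 genes found, 9430021M05Rik differed by -0.45 and Ppm1j by -0.23, and outside receiving wells E130114P18Rik by -3.40.

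Within the Tbx1-high cells, Otx1, Cyp26a1 and Cyp26c1 were found as a set: 13 of 45 cells had at least 2 of the 3, 30 had none and only 2 had exactly 1. The 13 cells came from both replicates (6 and 7) and all 6 plates, and 0 of 59 Tbx1-undetected cells had 2 or more. The 3 genes were picked after their values were seen. They were found in 1, 3 and 0 of the 59 cells, so this count of 0 follows largely from their choice. Correction for transfer left 12 such cells, and 3 of the 12 Tbx1-high cells outside receiving wells were of this kind. Tbx1 had a mean of 6.99 in the 13 cells and 6.95 in the 30, and the median number of genes found was 4760 and 5054. Dlx2 was found in 4 of the 13 and 23 of the 30 cells, Gata2 in 5 and 21, and Meis1 in 11 and 18.

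These sets of cells were defined after the values were seen, so what follows is a description with no test. Among 10006 other tested genes, detection differed by at least 60 percentage points of cells for 12, with 5 higher and 7 lower in the 13 cells. Six2, a homeobox factor, was found in 12 of the 13 cells and 3 of the 30, and Spp1, the secreted phosphoprotein osteopontin, in 10 and 3. Slc4a2, an anion exchanger, was found in 11 and 7, Pgf, a growth factor of the VEGF family, in 10 and 5, and Polg2, an accessory subunit of the mitochondrial DNA polymerase, in 10 and 3. In the other direction Oc90 was found in 4 of the 13 and 28 of the 30 cells, with means of 2.29 and 7.59. Dlx5, a distal-less homeobox factor of the dorsal vesicle, was found in 3 and 28, Msx1 in 2 and 26, Msx2 in 1 and 22, and Sema3a, a secreted axon repellent, in 1 and 25. Col11a1, a fibrillar collagen, was found in 3 and 25, and Car4, a carbonic anhydrase, in 0 and 18. The Tbx1-undetected cells lay between the sets for Dlx5 (74.6% of cells), Msx1 (50.8%) and Oc90 (49.2%), and near the 30 cells for Spp1 (3.39% against 10%). After correction for transfer the counts were 12 of 12 and 2 of 31 cells for Six2 and 2 of 12 and 27 of 31 for Dlx5.

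**Figure D4:**
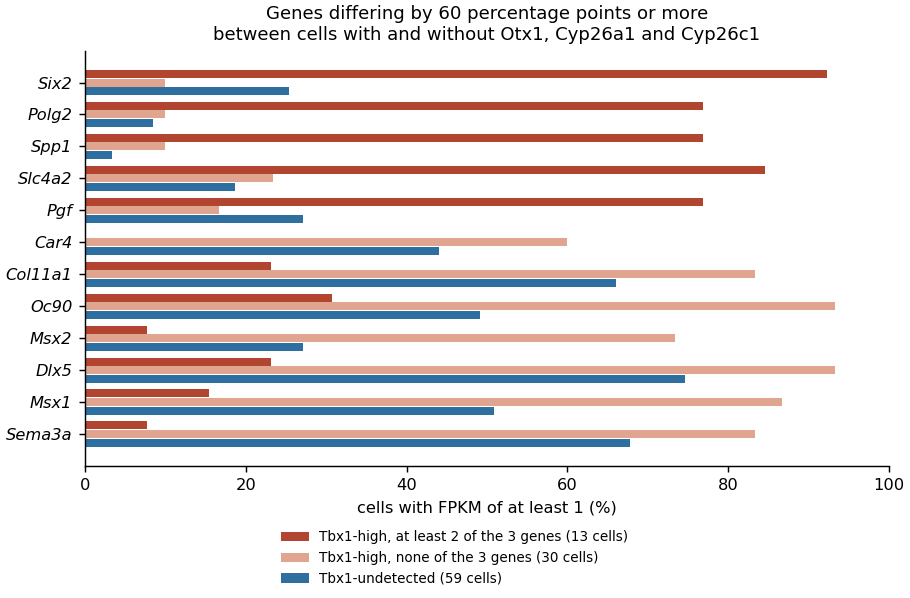
Percentage of cells with FPKM of at least 1 for the 12 genes that differed by 60 percentage points or more between Tbx1-high cells with at least 2 of Otx1, Cyp26a1 and Cyp26c1 (13 cells) and those with none (30), beside Tbx1-undetected cells (59). Six2 stands at 92.3% against 10%, and Dlx5 at 23.1% against 93.3%.

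Lists of pathway genes were mostly without calls. Of 18 lists, 6 held at least 1 called gene and 12 held none, and list medians ran from -0.31 to 0.50 beside 0.02 for all genes tested. Over all genes tested, 0.13% were called higher and 0.15% lower. Posterolateral and ventral patterning counted 4 higher and 0 lower of 27 tested, namely Otx1, Tbx3, Gata2 and Meis1, with a median of 0.07. Otx1 had been named beforehand from these data, and Tbx3, Gata2 and Meis1 did not pass after correction for transfer. Dorsal patterning counted 0 higher and 1 lower, Gbx2, of 12 (median 0.21). Tbx2, the closest relative of Tbx3 in the patterning list, had means of 4.32 and 5.29 in Tbx1-high cells against 5.53 and 5.47 and did not pass (adjusted p = 0.755). No gene passed among 26 of BMP and TGF-beta signalling (median 0.24), whose member with the largest difference was Id2, an inhibitor of basic helix-loop-helix factors, at 1.82 ± 0.38 (adjusted p = 0.064). Bmp4, a ligand of that pathway picked out after its values were seen, was found in 18 of 45 and 6 of 59 cells (1.79, adjusted p = 0.186).

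Ligands, receptors and targets of the other pathways also gave no call, beside 0.28% of all genes tested. The Notch list had 0 of 22 (median -0.05; Jag1, a ligand, -1.1, adjusted p = 0.483), FGF 0 of 19 (-0.31; the receptor Fgfr2, 0.96, adjusted p = 0.549), Wnt 0 of 31 (-0.13; the secreted inhibitor Dkk1, 1.25, adjusted p = 0.318) and Hedgehog 0 of 10 (0.18; the coreceptor Cdon, 0.95, adjusted p = 0.387). Basement membrane and integrin genes gave 0 of 23 (median -0.01), with Fn1, which encodes fibronectin, at 1.90 (adjusted p = 0.291). Glycolysis gave 0 of 18 (0.05; Pdk1, 1.17, adjusted p = 0.62) and immediate early and heat shock genes 0 of 24 (-0.02; Junb, -0.80, adjusted p = 0.742). A T-box list without Tbx1 counted Tbx3 as the 1 higher of 3 tested, beside 0.13% of all genes called higher. Among cell cycle genes no member passed. The mitosis list had a median of 0.50 with 29 of 30 members above 0, beside 52.1% of all tested genes above 0, and its largest member was Ccnb1, a mitotic cyclin, at 1.5 ± 0.44 (adjusted p = 0.291). The S phase list had a median of 0.14 (E2f1, 1.17, adjusted p = 0.571), and the D cyclin and cell cycle exit list 0.05 (Ccnd2, -1.36, adjusted p = 0.291).

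**Figure D5:**
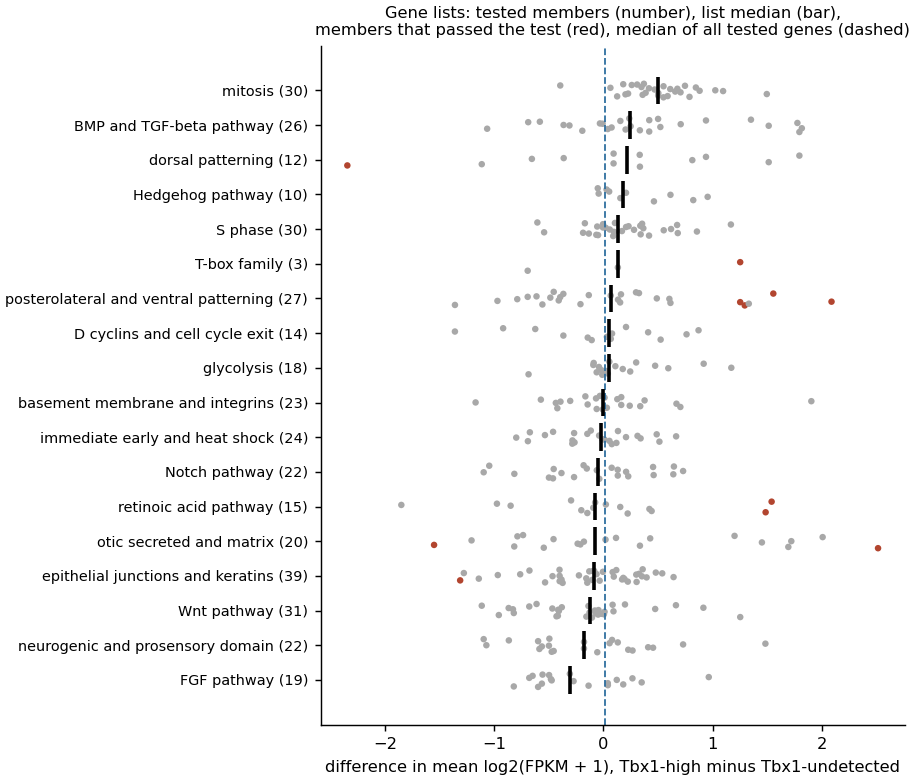
Differences in mean log2(FPKM + 1) of the tested members of each gene list (points), with the list median as a bar, members that passed the test in red and the median of all tested genes as a dashed line at 0.02. Red points are few, and the mitosis list has the highest median, 0.50.

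No neurogenic gene passed the test between the groups. Of 22 tested genes of the neurogenic and prosensory domain, 0 passed in either direction (median -0.18; -0.33 in replicate 1 and 0.02 in replicate 2). Over all genes tested 0.28% passed, so a count of 0 among 22 says little about this list. At an unadjusted p below 0.05, 6 members were lower and 1 was higher, beside 820 of 10009 for all genes in either direction. Lfng and Fgf3, chosen after their values were seen, had lower means in Tbx1-high cells. Lfng, a Notch-modifying glycosyltransferase, was found in 5 of 45 and 11 of 59 cells (-0.50, adjusted p = 0.368), and Fgf3, a ligand of the neurogenic domain, in 1 and 7 (-0.60, adjusted p = 0.309). Neurog1 was found in 0 of 45 Tbx1-high cells, which allows it to be found in up to 6.67%, and in 2 of 59 Tbx1-undetected cells, too few cells for it to enter the test. Sox2, a prosensory factor, was found in 23 and 42 cells (-0.59, adjusted p = 0.809). Isl1, a LIM homeobox factor of prosensory epithelium and sensory neurons, had the largest difference of the list and on the high side: its means were 1.77 and 1.78 against 0.50 and 0.09, and it was found in 18 and 6 cells (1.48 ± 0.67, adjusted p = 0.586). A median of 2 of 10 early neuroblast genes was found in both groups, and at least 3 of 12 genes of differentiating neurons in 7 of 45 and 8 of 59 cells. Since cells with Neurod1 of 5 or more were left out by the rule, the comparison does not reach committed neuroblasts, and no difference of the list passed the test within it.

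The 2 cells with Tbx1 between the limits differed from each other. The cell at 2.81 had Meis1 at 4.69, Tbx3 at 5.2 and Dlx2 at 2.76, and the cell at 1.21 had these genes at 0 and Otx1 at 1.2. Gbx2, Cyp26a1 and Cyp26c1 were at 0 in both cells. Outside the otic gate Tbx1 was found in 15.0% of 160 cells with Neurod1 of at least 5, in 19.4% of 36 with Trp63 of at least 3, in 35.7% of 28 other cells with Epcam of at least 5 and in 9.32% of 161 cells with lower Epcam. Otx1 was found in 2.5%, 2.78%, 3.57% and 0.62% of these classes, beside 26.7% (12 of 45) of the Tbx1-high otic cells. Prrx2 was found in 46.25%, 38.9%, 32.1% and 23.0% of these classes, in the same order, beside 66.7% of Tbx1-high and 11.9% of Tbx1-undetected otic cells. For Dlx2 the shares were 11.9%, 55.6%, 42.9% and 21.1%, beside 62.2% and 22.0%. Neither Prrx2 nor Dlx2 was thus particular to Tbx1-high cells. Meis1 was found most often outside the gate, in 91.3% of the cells with lower Epcam and 91.7% of those with Trp63. Elovl7 was found in 30.6% of the Trp63 class. The part of transfer between wells in these low shares was not tested.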

How the data were processed

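RNA of single cells was amplified with a SMARTer kit and sequenced from Nextera XT libraries, per the labels' protocols. The authors deposited 1 table of log2 values, log2(FPKM + 1) per gene and cell. Per the submitters' processing notes the tools included FastQC, cutadapt, Bowtie2, TopHat, SAMtools and Cufflinks with the mm10 build, in roles and with settings not given in the sources used here. No whole-read steps were found in the values, so no read counts or depth could be recovered. Of 19659 rows, 19630 matched a gene identifier of the annotation. Leaving out 132 rows that share 63 identifiers and 33 with no or a shared symbol kept 19494 genes in 491 cells, with 2552 to 6403 genes found per cell.

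Cells were cut into classes by the rule genes: Tbx1-high and Tbx1-undetected otic cells, Neurod1 of at least 5, Trp63 of at least 3, other Epcam of at least 5, and the rest. A class needed at least 5 cells in each replicate, so the 2 cells with intermediate Tbx1 were described and not fitted. Means per class and replicate were fitted with limma 3.58.1 (R 4.3.3) with replicate as a block and a mean-variance trend, and p-values were adjusted by Benjamini and Hochberg over the 10009 genes found in at least 5% of the compared cells. This filter pooled both groups, so a gene found in few or no cells of 1 group could enter through the other alone. The replicate block pairs group means pooled over the plates of a replicate, by the labels, and does not pair cells by plate. With means per plate and plate as a block, 3 of the 28 calls were kept. All fitted classes, also those outside the comparison, entered the estimate of the spread of each gene. With only the 2 groups in the fit, 17 of the 28 calls were kept. The 5 rule genes were not tested. Fold differences are on the log2(FPKM + 1) scale, which understates the change of low genes. Named genes are the rule genes and Otx1, the 12 largest increases and decreases among called genes with the same sign in both replicates and at least 5 plates, called members of the lists, and otherwise the list's member with the largest difference. Genes named outside this rule are said to be so or were chosen after their values were seen, as were Tbx2, Sox2, Neurog1, Cyp26b1 and Rdh10. The members and the lists were chosen with earlier results of these data known. The links between wells, defined after the data were seen, join plate rows that share transcripts found in at most 10 cells, with an excess of at least 3 in both replicates. Values at or below the 90th percentile of a link's ratio times the source value were set to 0 in the corrected alternative. The rule was then applied again for the tests and shares, so cells could change class. Corrected counts in sets of Tbx1-high cells kept the first classes. A well counted as receiving only where its source well also held a cell of the series. The fitting script was tested on simulated data. Exon overlaps come from GENCODE and promoters from RefSeq.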

Additional observations from a re-analysis of the deposited data

How the results depend on the processing

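The count of 28 genes was 27 to 41 with upper-quartile scaling (27), Tbx1 listed at 0 (28), a pseudocount of 0.1 (30, with 17 higher and 13 lower), only the 2 groups in the fit (39, of which 17 were among the 28) and Tbx1 of at least 4 (41). It was 25 with values corrected for transfer (9 higher and 16 lower) and 23 without cells holding endothelial or macrophage markers, which removes no compared cell and changes only the other classes. Without the replicate block it was 29, with 26 of the 28 kept. Weighting classes by their number of cells gave 43, with all 28 kept. Lower counts came from log2 of the mean FPKM (4), no filter on low values (14), a filter at 20% of cells (14, where 19 of the 28 were tested), means per plate (7, of which 3 were among the 28), Neurod1 below 1 (15), the deeper cells of at least 4833 genes found (1, not among the 28) and cells outside receiving wells (0, with 903 genes at an unadjusted p below 0.05). Leaving out 1 replicate, with plate means of the other one, gave 0 to 4, none of them among the 28: 0 without replicate 1 (500 at an unadjusted p below 0.05) and 4 without replicate 2. The cells compared are far fewer in the last 3 of these and slightly fewer with Neurod1 below 1 (43 high and 55 undetected). The part of this in the counts and the cause of the other changes were not tested. None of the 28 differences changed sign under any of these settings, but the settings reuse the cells that gave the calls, so this is no independent evidence. The share of Tbx1-high cells was 43.0% with Neurod1 below 1, 35.3% outside receiving wells, 43.2% after correction (an alternative chosen after seeing the data) and 39.6 to 44.8% by replicate. Depth in reads is unknown, so a gene not found in a cell cannot be told from a gene missed.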
